A study of Mus musculus with 22 samples.

Results

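Liver RNA of hypophysectomised (Hypox) female mice that had received 2 injections of growth hormone (GH) was compared with liver RNA of untreated Hypox females. Hypox mice have had the pituitary removed, so they lack GH as well as the other pituitary hormones. The comparison rests on 2 of the 22 arrays of the series, chosen by their labels, and the series as a whole covers 11 comparisons of 10 groups of ICR mice aged 8 weeks. GH had been injected 4 h apart and the livers were taken 30 min after the later injection. On each array a pool of 3 GH-treated livers was hybridised against a pool of 2 Hypox livers, with the GH pool in Alexa 555 on array 1 and in Alexa 647 on array 2. Both groups were female, of the same strain and age, and without a pituitary, which left GH as the labelled difference. The series text gives 6 mice with 2 injections and 7 untreated Hypox females. The labels do not say whether the Hypox pools of both arrays held the same mice. If they did, agreement between the 2 arrays says nothing about differences between Hypox pools. The p-values measure the spread between pools on arrays rather than between mice.

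GH binds its receptor on hepatocytes and activates the kinase JAK2, which in turn activates the transcription factor STAT5b. Among the direct targets of STAT5b are Igf1 and Igfals, which carry the growth signal into the blood, and Cish and Socs2, which dampen the receptor's signal. In rodents the pituitary releases GH in pulses in males and more evenly in females, and the liver reads that pattern into many sex differences of gene expression.

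Every value below is a log2 ratio of GH over Hypox unless stated otherwise, so 1 on this scale is a doubling. Ratios of 26191 genes were fitted with limma in 1 model of all 22 arrays, and the standard error (SE) of a gene comes from that fit. A gene was called when its Benjamini-Hochberg adjusted p was under 0.05 and both arrays went the same way. The arrays were similar in brightness, with median signals of 328 and 320 in green and 460 and 440 in red, and 70.4% to 74.4% of spots well above background. The Y-linked genes and Xist lay between -0.18 and 0.47 on both arrays, against 3.29 to 7.31 for the Y-linked genes in Hypox males over Hypox females. The channels thus did not differ as the sexes do. The labels, which give female Hypox mice as the comparator, were followed, although the series' design text names male Hypox mice for this set. None of the 8 hepatocyte markers tested was called by limma and 2 of them had an unadjusted p under 0.05. Their median was -0.46 on array 1 and 0.44 on array 2.

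Skeletal muscle transcripts differed between the channels of both arrays. The median level of the muscle list was 11.1 and 10.98 (log2 intensity) in the Hypox channels of the 2 arrays, and 7.45 and 7.48 in the GH channels. In the 8 other channels that held female Hypox pools it lay between 6.45 and 6.57. Both Hypox channels used here thus stood apart alike, and whether they held 1 pool is not labelled. All 53 muscle genes tested were below 0 on both arrays, 41 of them were called lower, and their median log2 ratio was -2.79. Muscle genes, and the genes whose ratios followed the muscle list over the other 20 arrays (Pearson r over 0.5), were therefore left aside when the largest falls were chosen. Members of lists and genes that rose are given whatever their r. In a bulk sample, fewer cells of a type and less RNA per cell cannot be told apart.

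**Figure D1:**
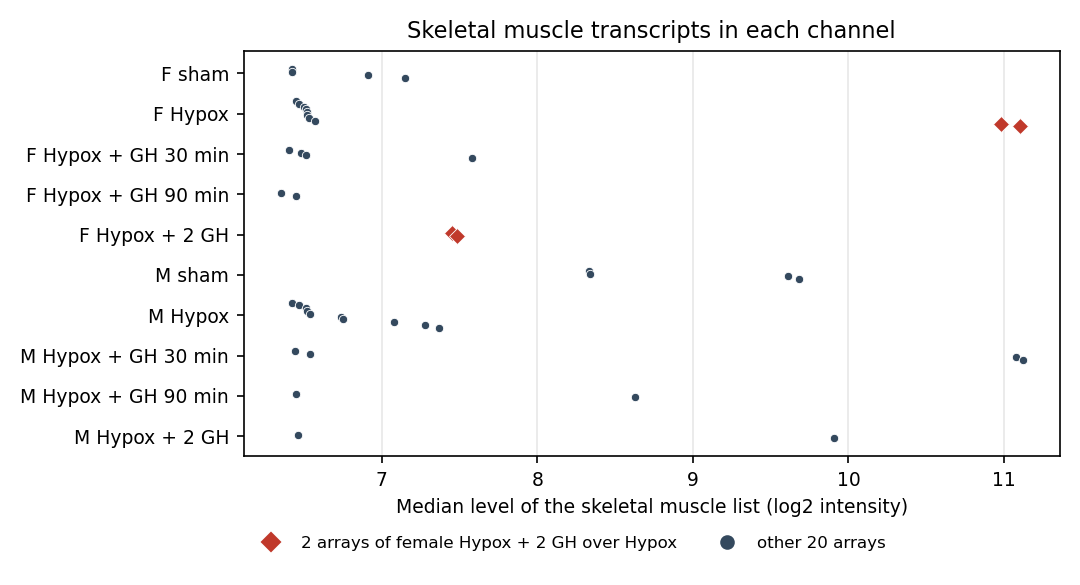
Median log2 intensity of the skeletal muscle list (x axis) in each channel of the 22 arrays, 1 point per channel, by the group that the channel held (y axis). The Hypox channels of the 2 arrays described here (red diamonds) lie at 10.98 and 11.1, apart from the other female Hypox channels at 6.45 to 6.57.

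In GH over Hypox, 1153 genes were called higher (4.40% of those tested) and 1055 lower (4.03%), so 2208 genes were called (8.43%). Among them, 270 genes that rose and 414 that fell had a fold of 1.5 or more. Of the genes called lower, 41 belonged to the muscle list and 241 more followed it, which left 773 genes lower, 190 with a fold of 1.5 or more. Of the genes called higher, 125 had an r over 0.5 with the muscle list, although that list itself fell. Over all genes tested, 2173 (8.30%) belonged to the list or followed it. The 2 arrays correlated at r = 0.743 across genes, which are not independent replicates. With these 2 arrays fitted alone, 693 genes were called higher and 981 lower. The number of calls fell to 206 without array 1 and to 104 without array 2, and to 81 (56 higher and 25 lower) when arrays were only centred on their median. With either array left out in turn, 59 genes kept their call and direction. Most of these 59 had risen (52), and Socs2, Nrep, Serpina9, Rbm45, Aacs, Ddc, Igfals and Igf1 were among them.

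The largest rise was that of Cish, an SH2-domain protein induced by STAT5 that blocks STAT5 docking at the receptor. Its ratio was 4.09 on array 1 and 3.87 on array 2. The fit gave 3.98 (SE 0.68, n = 2 arrays; 15.8-fold; adjusted p = 0.0053). Socs2, the adaptor of a ubiquitin ligase that removes the GH receptor, stood at 3.58 and 3.62. Its fit was 3.60 (SE 0.39; 12.1-fold; adjusted p = 0.00039). In level, the GH channels held Socs2 at 13.62 and 13.65 (log2 intensity) and the Hypox channels at 10.04 and 10.02, so the channels did not overlap. Hypox over sham females, which share the Hypox group, gave -4.14 for Cish and -3.81 for Socs2, both called. The Cish call was lost without array 1 (adjusted p = 0.14) and without array 2 (adjusted p = 0.092), while Socs2 kept its call in both cases.

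Cish is shown here because its promoter holds the letters of a STAT dimer site next to the start. The motif searched was TTCNNNGAA, which reads the same on both strands, in the 300 bases around each RefSeq start (GRCm38.p6). It was present in 8.30% of all 32851 windows. Capitals mark the motif in the lines of Cish and, for later use, of Igfals, Keg1 and Bcl6, each written 5′ to 3′ on the gene's strand. The Cish window runs from 4 bases before to 26 bases after the start (chr9:107296655-107296684, plus strand). The Igfals windows lie 250 to 171 bases before its first listed start (chr17:24877594-24877673, plus strand) and 69 to 40 bases before its second (chr17:24878162-24878191, plus strand). The Keg1 window lies 190 to 81 bases before the start (chr19:12695600-12695709, plus strand), and the Bcl6 window 190 to 61 bases before its second listed start (chr16:23981344-23981473, minus strand).
Cish: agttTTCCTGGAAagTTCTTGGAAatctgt
Igfals, first start: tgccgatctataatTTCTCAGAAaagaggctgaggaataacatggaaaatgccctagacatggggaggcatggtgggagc
Igfals, second start: tctgccaggtgTTCCTAGAAgaggccctgg
Keg1: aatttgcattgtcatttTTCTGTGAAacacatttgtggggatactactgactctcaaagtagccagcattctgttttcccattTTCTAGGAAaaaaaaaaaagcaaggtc
Bcl6, second start: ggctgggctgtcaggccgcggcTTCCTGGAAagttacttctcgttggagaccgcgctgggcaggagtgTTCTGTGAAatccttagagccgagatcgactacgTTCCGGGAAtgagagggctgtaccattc
Cish and Keg1 each hold the motif at 2 places in their windows and Bcl6 at 3. Of the 15 largest rises, 9 had an entry in the promoter table, and 3 of these (Cish, Igfals and Rbm45) held the motif. Among the genes called higher that had an entry, 12.73% held it, against 8.68% of all genes tested with an entry. These are letter matches in a short window and do not show binding.

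No other gene of the signal chain was called. Of the 21 genes of the GH signal list tested, Cish and Socs2 were the 2 called (9.52%, beside 4.40% of all genes called higher), and the median was 0.05. Socs1, another inhibitor of JAK kinases, read 1.26 on array 1 and 0.37 on array 2 and was not called (0.81, SE 0.46, adjusted p = 0.34). Socs3, which is better known from the response to interleukin-6, read 0.60 and -0.67, so its arrays disagreed. The receptor itself, Ghr, read 0.07 and 0.40 (0.24, SE 0.09, adjusted p = 0.12). Other Ghr probes read 0.68 (0.62 and 0.75) and 0.23 (0.14 and 0.31), so the probes of this gene differed in size. Jak2 read -0.20 and -0.26, and Stat5b -0.02 and -0.28, and neither was called. With an SE of 0.46 for Socs1 and 0.63 for Socs3, changes of the size of these ratios were not detectable.

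Igfals and Igf1, which encode 2 parts of the circulating IGF1 complex, rose. Igfals encodes the acid-labile subunit, which holds IGF1 in the blood. Its ratios were 1.78 and 2.06, and the fit gave 1.92 (SE 0.10; 3.79-fold; adjusted p = 2e-06). Igf1, the main growth factor downstream of GH, read 1.38 and 1.69, with a fit of 1.53 (SE 0.16; 2.89-fold; adjusted p = 0.00037). Both kept their call in each of the 15 other settings tried. Hypox over sham had been -2.49 for Igfals and -3.25 for Igf1. The Igf1 window in the table held no STAT motif.

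Among the other members of the IGF1 axis, Igf1r, the receptor of IGF1, fell (-0.36 and -0.65; -0.50, SE 0.11, adjusted p = 0.018). Igf2, a fetal growth factor, also fell (-1.44 and -1.02; -1.23, SE 0.21, adjusted p = 0.0054), but it followed the muscle list at r = 0.65, and the part of muscle in its fall was not tested. No binding protein was called. Igfbp3, which joins IGF1 and the acid-labile subunit in the ternary complex, read 0.10 and 0.13, and Igfbp1, a binding protein that responds to insulin, read -0.85 and -1.09 with an SE of 0.68. In all, 2 of the 13 members tested rose, 2 fell (15.4% each, beside 4.40% of all genes called higher and 4.03% lower), and the median was -0.21.

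The remaining large rises belonged to enzymes, serpins and regulators. Phlda1, a pleckstrin homology domain protein induced early by many growth factors, read 2.81 and 2.68 (2.75, SE 0.50, adjusted p = 0.0071). Nrep, a small protein first described in regenerating neurons, read 2.5 and 2.77 (2.64, SE 0.24, adjusted p = 0.0001). A second Nrep probe read 2.73. Serpina3k, a secreted protease inhibitor from a cluster of near-identical copies, read 2.36 and 2.18 (2.27, SE 0.29, adjusted p = 0.0012). Copies of that cluster can share a probe's signal, so the rise cannot be assigned to Serpina3k alone. Serpina9 read 2.46 and 2.05 (2.25, SE 0.24, adjusted p = 0.00037), with 1.08 to 3.73 over the 15 other settings. Serpina3k and Serpina9 had an r of 0.51 and 0.55 with the muscle list, although that list fell. Rbm45, an RNA-binding protein, read 2.12 and 2.26 (2.19, SE 0.24, adjusted p = 0.00047), and in the Hypox channels it was above background on 1 of the 2 arrays only. The Rbm45 ratio kept its call in the 15 other settings, but its size ran from 0.92 with no background correction to 4.76 from the scanner's log ratio.

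Sppl2a, a protease that cuts within membranes, was less even and read 2.27 on array 1 and 1.18 on array 2 (1.72, SE 0.40, adjusted p = 0.022). Its call was lost without array 1 (adjusted p = 0.36) and without array 2 (adjusted p = 0.16).

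Ddc, the decarboxylase that makes dopamine and serotonin, read 1.97 and 2.00 (1.98, SE 0.17, adjusted p = 7.4e-05). Adgrf1, an adhesion G protein-coupled receptor, read 1.77 and 1.72 (1.75, SE 0.22, adjusted p = 0.001). Hacl1, a peroxisomal enzyme that shortens branched fatty acids, read 1.90 and 1.78 (1.84, SE 0.34, adjusted p = 0.0083). In these 3 genes the arrays lay close together. Bhlha15, a transcription factor of secretory cells also called Mist1, read 1.78 and 2.16 (1.97, SE 0.23, adjusted p = 0.0007). A second Bhlha15 probe, dimmer, read 0.06, so the probes of this gene disagreed. The Bhlha15 ratio ran from 1.01 to 2.30 over the 15 other settings, and 1 of them lost the call.

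**Figure D2:**
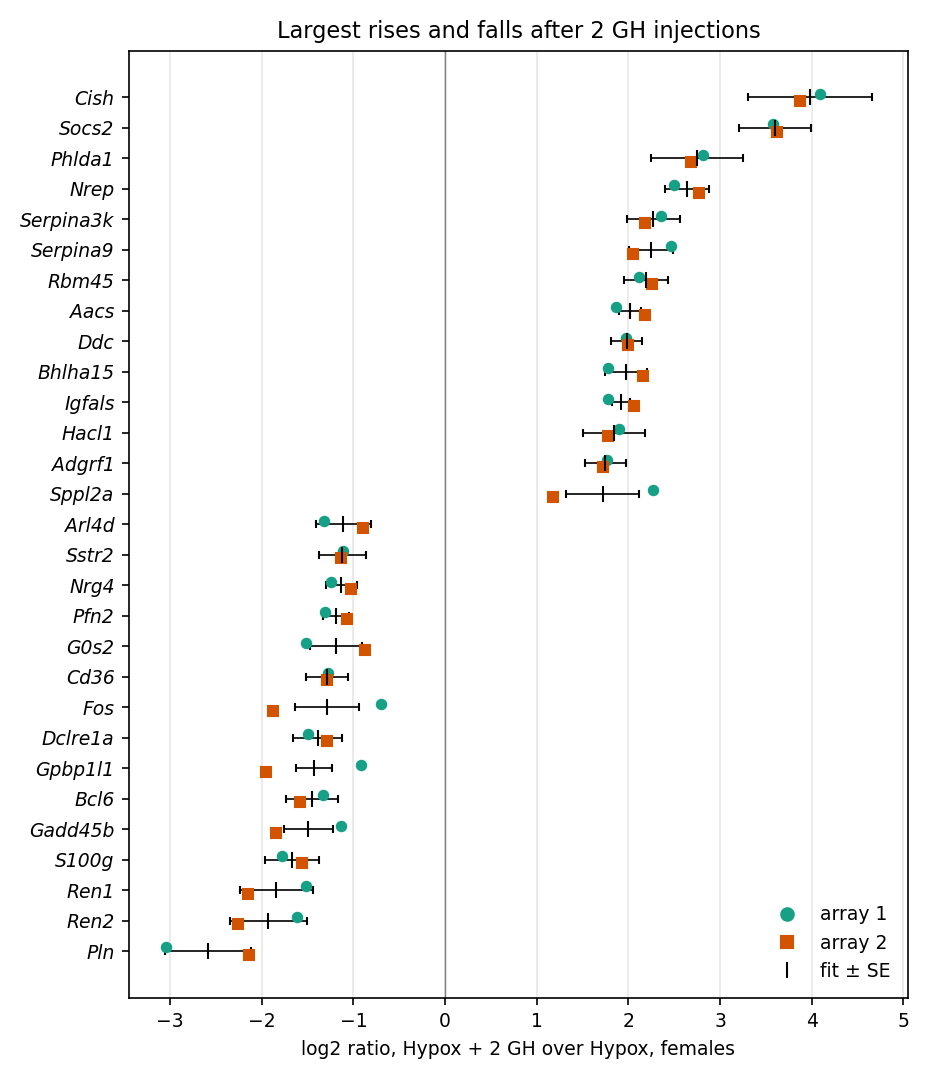
Log2 ratio of GH over Hypox (x axis) of the named genes among the 15 largest rises and the 15 largest falls, the falls without genes that followed muscle. Circles and squares show arrays 1 and 2, and the bar shows the fitted value ± SE; Cish and Socs2 lie highest at 3.98 and 3.60, and Sppl2a, Gpbp1l1 and Fos have the widest gaps between arrays.

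Other rises were smaller, and the 6 genes of this paragraph were chosen after their values were seen. Keg1, of the glycine N-acyltransferase family, read 1.59 and 1.66 (1.62, SE 0.07, adjusted p = 6.7e-07), the lowest adjusted p among the genes named here. Its r with the muscle list was 0.60, although that list fell. Ncald, a neuronal calcium sensor, read 1.58 and 1.63. Hsd17b2, which turns estradiol and testosterone into weaker steroids, read 1.33 and 1.42, and Apoa5, an apolipoprotein that lowers plasma triglycerides, read 0.91 and 1.33. Ect2, an exchange factor for small GTPases needed in cytokinesis, read 1.57 and 1.49. Adjusted p lay between 6.1e-05 and 0.00012 for these 4 genes, and like Keg1 they kept their call in each of the 15 other settings. The left-out arrays are among those settings, and keeping a call there was part of how these genes were chosen. The second Ect2 probe, near the lower end of the range, read 0.76. Fam3c, a secreted cytokine-like protein, read 0.68 and 1.43 (1.05, adjusted p = 0.00053).

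Genes that build ribosomes rose as a group in small steps. Of the 51 members tested, 34 were called higher (66.7%, beside 4.40% of all genes) and none lower, and 49 were above 0 on both arrays. Their median was 0.38, against 0.00 over all genes. Nop58 and Nop56, core proteins of the box C/D particles that methylate ribosomal RNA, read 1.08 and 0.79, and 0.80 and 0.60. Gar1, a protein of the box H/ACA particles that make pseudouridine, read 0.93 and 0.71 (0.82, SE 0.08, adjusted p = 0.00016). Nolc1, a nucleolar chaperone of these particles, read 0.88 and 0.68, although it followed the muscle list at r = 0.56. Tsr1, which matures the small subunit, read 0.78 and 0.72, and Polr1e, a subunit of RNA polymerase I, read 0.64 and 0.73. The largest ratio of a member, that of Nop58, was 1.91-fold. The 34 calls became 18 with the 2 arrays fitted alone, 6 without array 1, 3 without array 2 and 0 with median centring. The E-box CACGTG, which reads the same on both strands, was found in the windows of 13 of the 53 members with an entry (24.53%) and of 7 of the 31 called higher, beside 16.25% of all genes called higher with an entry, 10.75% of all genes tested and 8.09% of all genes in the table. This too is a letter match only.

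Translation factors and tRNA synthetases rose in part as well. Of 26 tested, 14 were called higher (53.8%, beside 4.40% of all genes) and none lower, with a median of 0.29. Tars, which charges threonine tRNA, read 0.99 and 0.86 (0.93, SE 0.11, adjusted p = 0.00061). Eif4a1, the helicase that opens mRNA for initiation, read 0.61 on both arrays, and Eif4e, which binds the cap, read 0.39 and 0.31. The 14 calls became 1 without array 1, 0 without array 2 and 1 with median centring.

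Polyamine and nucleotide synthesis moved in part. Odc1, the first and rate-limiting enzyme of polyamine synthesis, read 0.81 and 0.92 (0.87, SE 0.11, adjusted p = 0.0014). Srm, which makes spermidine, read 0.79 and 1.16 (0.97, adjusted p = 0.0063), and Cad, the enzyme that starts pyrimidine synthesis, read 0.68 and 0.76 (0.72, adjusted p = 0.018). The dimmest of the 3 other Cad probes read -0.02. The purine enzymes Atic and Gart rose by 0.51 and 0.24. Oaz2, an antizyme that marks ornithine decarboxylase for breakdown, fell by 0.30, with its 3 other probes between -0.23 and -0.09. In all 5 of 27 members rose (18.5%, beside 4.40% of all genes), 1 fell (3.70%, beside 4.03%), and the median was 0.13. The 5 rises became 1 without array 1, 0 without array 2 and 0 with median centring.

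**Figure D3:**
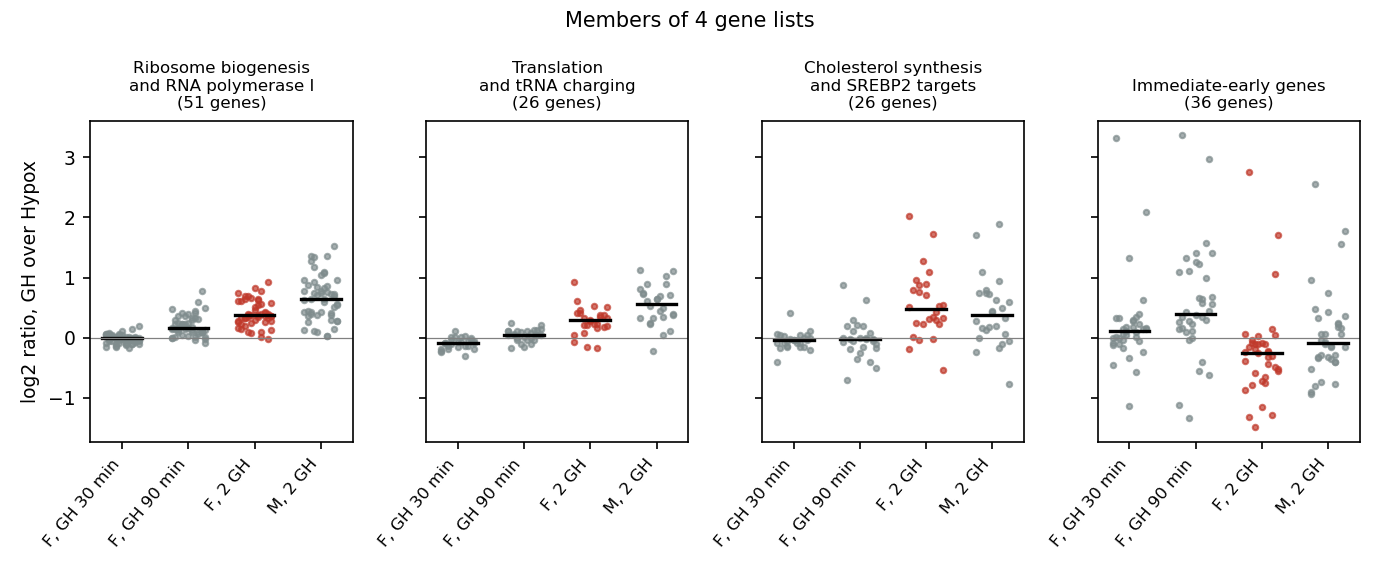
Log2 ratio of GH over Hypox (y axis) of every tested member of 4 gene lists (1 point per gene, called or not) after 1 injection (30 or 90 min) and after 2 injections in females (red), and after 2 injections in males; black bars are medians. Ribosome genes have medians of -0.02, 0.16, 0.38 and 0.65, while immediate-early genes have their highest median, 0.39, at 90 min and -0.25 after 2 injections.

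In the protein-folding list of the endoplasmic reticulum, 3 of 29 were called higher (10.3%, beside 4.40% of all genes), with a median of 0.27. Xbp1, the transcription factor of the unfolded protein response, read 0.68 and 0.69. Dnajb9, a co-chaperone, read 0.52 and 0.89, and Sec61a1, the channel through which new proteins enter, read 0.46 and 0.53. Of the 29 members, 18 followed the muscle list over the other arrays, among them Dnajb9 at r = 0.51. Of all genes tested, 8.30% followed or belonged to that list.

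In lipid metabolism the main rise was Aacs, acetoacetyl-CoA synthetase, which returns ketone bodies to lipid synthesis in the cytosol. Its ratios were 1.87 and 2.18, with a fit of 2.02 (SE 0.12; 4.07-fold; adjusted p = 8e-06). In level, the GH channels held Aacs at 13.76 and 13.93 (log2 intensity) and the Hypox channels at 11.89 and 11.75. Aacs was also the sole member called among the 32 lipogenic genes tested (3.1%, beside 4.40% of all genes called higher). The median of that list was -0.06.

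Of the 26 genes of cholesterol synthesis tested, 4 were called higher (15.4%, beside 4.40% of all genes), Aacs among them, and none lower, with a median of 0.47 (0.69 on array 1 and 0.27 on array 2). Mvd, an enzyme of the mevalonate pathway, read 1.25 and 0.67 (0.96, SE 0.20, adjusted p = 0.013). Lss, which closes the sterol rings, read 0.61 and 0.47 (0.54, adjusted p = 0.034). Array 1 was the higher in both genes, as in the list's median. At an unadjusted p under 0.05, 16 members were higher and none lower, beside 2824 of 26191 genes higher. The calls became 1 without array 1 and 2 without array 2.

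Fatty acid oxidation changed in few genes. Among 37 PPAR alpha targets tested, the acyl-CoA thioesterases Acot3 (1.35 and 1.86; 1.61, adjusted p = 0.0039) and Acot4 (0.80 and 0.83; 0.81, adjusted p = 0.029) rose. They are close copies whose probes may share signal. Decr1, an enzyme needed for unsaturated fatty acids, rose by 0.44 (adjusted p = 0.047), and Cd36, which takes up fatty acids, fell. Cd36 read -1.28 and -1.29 (-1.29, SE 0.23, adjusted p = 0.0061). G0s2, an inhibitor of the triglyceride lipase of fat droplets, read -1.52 and -0.87 (-1.19, adjusted p = 0.022). In all 3 of the 37 PPAR alpha targets rose (8.11%, beside 4.40% of all genes), 1 fell (2.70%, beside 4.03%), and the median was -0.09.

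Female-biased liver genes rose in part. Of 29 tested, 9 were called higher (31.0%, beside 4.40% of all genes) and none lower, with a median of 0.05. Besides Acot3, they included Fmo2 (1.11 and 1.77), the organic anion transporter Slc22a26 (1.15 and 1.53), the prolactin receptor Prlr (1.17 and 1.31), Lifr (0.92 and 0.63), Cyp2c40 (0.69 and 0.84), the estrogen receptor Esr1 (0.76 and 0.75) and Trim24 (0.65 and 0.58). Lifr, the receptor of leukaemia inhibitory factor, had the lowest adjusted p of these after Fmo2 (0.77, SE 0.07, adjusted p = 0.00015, and 0.0001 for Fmo2). The dimmer second probe of Esr1 read 0.15. Slc22a26, Cyp2c40 and Fmo2 have close relatives that may share signal. The 9 calls became 3 without array 1 and 2 without array 2.

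Of the 23 male-biased genes tested, 3 were called higher (13.04%, beside 4.40% of all genes) and 2 lower (8.70%, beside 4.03%). Serpina3k, Egfr and the steroid dehydrogenase Hsd3b5 rose. Egfr, the receptor of epidermal growth factor, read 0.98 and 1.08 (1.03, SE 0.25, adjusted p = 0.026), and its 3 other probes lay between 0.89 and 1.09. Hsd3b5 read 0.36 and 0.61 (0.48, adjusted p = 0.04), with 0.16 to 1.17 over the 15 other settings, 7 of which lost the call. Nox4, an oxidase that makes hydrogen peroxide, fell (-0.87 and -0.76; -0.82, adjusted p = 0.019). The list's median was -0.01. Over the other arrays 15 of its 23 members followed the muscle list, beside 8.30% of all genes tested that followed or belonged to it. Egfr and Hsd3b5 both had r = 0.60 and Serpina3k 0.51. The muscle list itself differed between the sexes in sham mice, with medians of 0.97 and 2.14 in males over females. In Hypox males over Hypox females its medians were 0.02 and -0.07. Without array 1 none was called, and without array 2 there was 1 call, higher.

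Bcl6 was the other male-biased gene that fell, a transcriptional repressor that binds many STAT5 sites. Its ratios were -1.33 and -1.58, and the fit gave -1.45 (SE 0.28; 2.74-fold; adjusted p = 0.009). Cux2, a repressor found in female liver, read 0.11 and 0.07 (0.09, SE 0.14, adjusted p = 0.79), and it was above background in the Hypox channel of 1 array only, so a small change in it was not detectable. Of the 22 sex-biased transcription factors tested, Zbtb20, Esr1 and Trim24 rose (13.6%, beside 4.40% of all genes) and Bcl6 and Nr0b2 fell (9.09%, beside 4.03%). Zbtb20, a zinc finger repressor of liver, read 0.79 and 1.21 (1.00, SE 0.14, adjusted p = 0.0018). Nr0b2, the nuclear receptor partner also known as SHP, read -1.40 and -0.72 (-1.06, SE 0.26, adjusted p = 0.029). The Bcl6 call was lost without array 1 (adjusted p = 0.12) and without array 2 (adjusted p = 0.2).

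Of the 15 largest falls by the rule used for naming genes, 14 followed the muscle list, so the falls described here are the largest among the 773 genes that did not, a choice made after seeing the data. The deepest was still a muscle gene in kind. Pln, phospholamban of heart and slow muscle, read -3.04 and -2.14 and stood just under the limit at r = 0.49. Its fit of -2.59 ran from -4.10 to -1.36 over the 15 other settings, 3 of which lost the call. Next came the renin genes Ren1 (-1.52 and -2.15; -1.84, SE 0.40, adjusted p = 0.017) and Ren2 (-1.61 and -2.26; -1.93, SE 0.42, adjusted p = 0.017). They are near-identical copies whose probes cannot separate them. At 90 min after 1 injection Ren1 read 1.25 and Ren2 1.29, neither called.

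S100g, the vitamin D-dependent calcium carrier calbindin-D9k, read -1.78 and -1.56 (-1.67, SE 0.29, adjusted p = 0.0055). Hypox over sham had been 3.98 for S100g. Dclre1a, a nuclease of DNA crosslink repair, read -1.49 and -1.29 (-1.39, adjusted p = 0.0093), and its second probe read -1.41. Gpbp1l1 read -0.92 and -1.95 (-1.43, SE 0.20, adjusted p = 0.0017), a wide gap between arrays. Pfn2, an actin-binding profilin, read -1.31 and -1.07 (-1.19, SE 0.14, adjusted p = 0.00062).

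Smaller falls included receptors and secreted ligands. Nrg4, a ligand of ERBB4 secreted by fat and liver, read -1.24 and -1.03 (-1.13, adjusted p = 0.0031). Sstr2, a receptor of somatostatin, read -1.11 and -1.13 (-1.12, adjusted p = 0.02), and the small GTPase Arl4d read -1.32 and -0.90 (-1.11, adjusted p = 0.039). Rdh9, a retinol dehydrogenase, read -1.02 and -1.10 (-1.06, SE 0.08, adjusted p = 5.3e-05), and Emp2, a tetraspan membrane protein, read -0.74 and -0.83 (-0.78, SE 0.09, adjusted p = 0.00043). Rdh9 and Emp2, chosen after their values were seen, were 2 of the 7 falls that kept their call with either array left out.

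Immediate-early genes were mostly below 0. Of 36 tested, Phlda1 was called higher and 4 lower (11.1%, beside 4.03% of all genes called lower), and 24 were below 0 on both arrays, beside 8596 of all 26191 genes, with a median of -0.25. Gadd45b, a stress-induced growth arrest gene, read -1.14 and -1.84 (-1.49, SE 0.27, adjusted p = 0.0072). Fos, part of the AP-1 transcription factor, read -0.70 and -1.88 (-1.29, SE 0.35, adjusted p = 0.042). Zfp36, which destabilises cytokine mRNAs, fell by 0.87, and Ccn1, a secreted matrix protein, by 0.55. Gadd45b, Fos, Zfp36 and Ccn1 all lost their call without array 1 and without array 2, and Fos lost it in 7 of 15 settings.

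Among 29 collagens and matrix genes, 4 were called lower (13.8%, beside 4.03% of all genes) and none higher. On both arrays 28 members were below 0, beside 8596 of all 26191 genes, and the median was -0.30. Col1a2 and Col6a1, fibril and network collagens, read -0.75 and -0.91, and -0.73 and -0.48. Lum, a proteoglycan of collagen fibrils, read -1.01 and -0.78, and Mmp2, a gelatinase, -0.78 and -0.53. Muscle holds connective tissue, and beside these values stand the muscle list's median of -2.79 and that of the fat markers (-0.26, 1 of 9 lower, Fabp4 at -0.95). Col1a2, Lum, Mmp2 and Col6a1 had r of 0.42, 0.32, 0.17 and 0.04 with the muscle list over the other arrays. The part of other tissue in these falls was not tested.

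Some heat shock and marker genes were called as well. Of 17 heat shock genes tested, 3 were called lower (17.6%, beside 4.03% of all genes) and 2 higher (11.8%, beside 4.40%). Cryab (-1.86), Hspa1a (-1.10) and Hspb1 (-0.94) were called lower, at r of 0.98, 0.73 and 0.73 with the muscle list, while the mitochondrial chaperonins Hspd1 and Hspe1 rose by 0.28 and 0.31. Hspa1a has a near-identical copy. Their probes disagreed, with a dimmer Cryab probe at -0.02 and other Hspa1a probes at -0.13, -0.05 and -1.07. Stellate cell markers had 1 call in 11 (9.09%, beside 4.03% of all genes called lower), Des at -1.26, whose r with muscle was 0.95. Of 11 endothelial markers, Stab2 and Tek were called lower (18.2%, beside 4.03%), each by 0.23, and the list's median was -0.04. Of 9 bile duct markers, Spp1 was called higher (11.1%, beside 4.40%), by 0.87 (1.34 and 0.41). The median of that list was -0.03, with 3 members above 0 and 3 below 0 on both arrays. The calls of Stab2, Tek and Spp1 were lost in 6, 8 and 5 of 15 other settings. Limma called none of the Kupffer cell (10), lymphocyte (11), neutrophil and monocyte (8), red cell (6) or pancreas markers (12), and at an unadjusted p under 0.05 it gave 0, 0, 0, 3 and 0.

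In the remaining lists few members passed the test. Limma called none of 27 interferon-response genes (0 at an unadjusted p under 0.05), with a median of 0.37 and values up to 1.61. None of 34 complement and coagulation genes was called (7 at an unadjusted p under 0.05, 3 higher and 4 lower). Cell cycle genes had 1 call in 41, Cdk4, a kinase of the first gap phase, at 0.34. Mitochondrial respiratory chain genes had 1 in 35, acute phase genes 1 in 30 and clock genes 1 in 21. The acute phase gene was Hamp, the iron regulator hepcidin, at 0.69, and the clock gene was Csnk1e, a kinase of the period proteins, at -0.52, whose dimmer second probe read -0.07. These shares of 2.44% to 4.76% lay near the share of all genes called in 1 direction.

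Single calls elsewhere included enzymes and hormone receptors. Fkbp5, a chaperone of the glucocorticoid receptor, read 0.69 and 1.11 (0.90, SE 0.14, adjusted p = 0.0031). It was the 1 call among 17 glucocorticoid targets (5.88%, beside 4.40% of all genes called higher). The drug-metabolising P450 genes Cyp3a13 (-0.78 and -1.10) and Cyp3a25 (-1.15 and -0.49), relatives that may share signal, were the 2 calls among 32. That share was 6.25%, beside 4.03% of all genes called lower. Thra, a thyroid hormone receptor, read -0.42 and -0.74 (-0.58, SE 0.07, adjusted p = 0.0011). Klb, the co-receptor of FGF21 and FGF15, rose by 0.64, and Tfr2, an iron sensor, fell by 0.71 with -1.16 and -0.25 on the arrays. Gpt2, an alanine transaminase, fell by 0.62.

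The ratios after 1 injection are set beside those after 2. In females 30 min after 1 GH injection, 5 genes were called (0.0191%; 0.0115% higher and 0.00764% lower), and at 90 min 829 were (3.17%; 2.34% higher and 0.821% lower). Those comparisons also have female Hypox pools in the other channel, from the same group, so the comparisons are not independent, and the muscle levels above show that their Hypox pools differ from the 2 pools used here. Any difference between them includes that between Hypox pools. The 2-injection livers were also taken more than 4 h after the first injection, and no group had 1 injection that long before. The number of injections and the time since the first therefore cannot be told apart.

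Cish, Socs2 and Phlda1 had high ratios at each time, though not all were called at 30 min. There limma called 1 of the 21 GH signal genes higher, so Cish and Socs2 were not both called. No immediate-early gene was called at 30 min, so Phlda1 was not. Cish read 2.88 at 30 min, 4.17 at 90 min and 3.98 after 2 injections. Socs2 read 2.97, 3.89 and 3.60, and Phlda1 3.31, 3.36 and 2.75. No difference between 2 injections and either time was called for these 3 genes, and the SE of the difference was 0.96 for Cish, 0.55 for Socs2 and 0.70 for Phlda1. Nrep and Ect2 were near 0 at 30 min (-0.07 and 0.22) and had nearly the 2-injection ratio at 90 min (2.59 and 1.51).

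Other genes differed between 2 injections and the earlier times. Ddc read -0.05 at 30 min, 0.11 at 90 min and 1.98 after 2 injections. Hsd17b2 read 0.13, 0.12 and 1.37, Serpina9 0.05, 0.07 and 2.25, and Rdh9 -0.06, 0.04 and -1.06. Aacs (-0.40, 0.88 and 2.02), Igfals (0.30, 0.52 and 1.92), Keg1 (0.02, 0.83 and 1.62) and Igf1 (0.36, 0.73 and 1.53) had values in between at 90 min. The difference of 2 injections minus 30 min was called for all 8 of these genes, and minus 90 min for each but Igf1 (0.80, limma adjusted p = 0.094). For Serpina9, which followed the muscle list at r = 0.55, it was 2.20 (adjusted p = 0.014) minus 30 min.

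**Figure D4:**
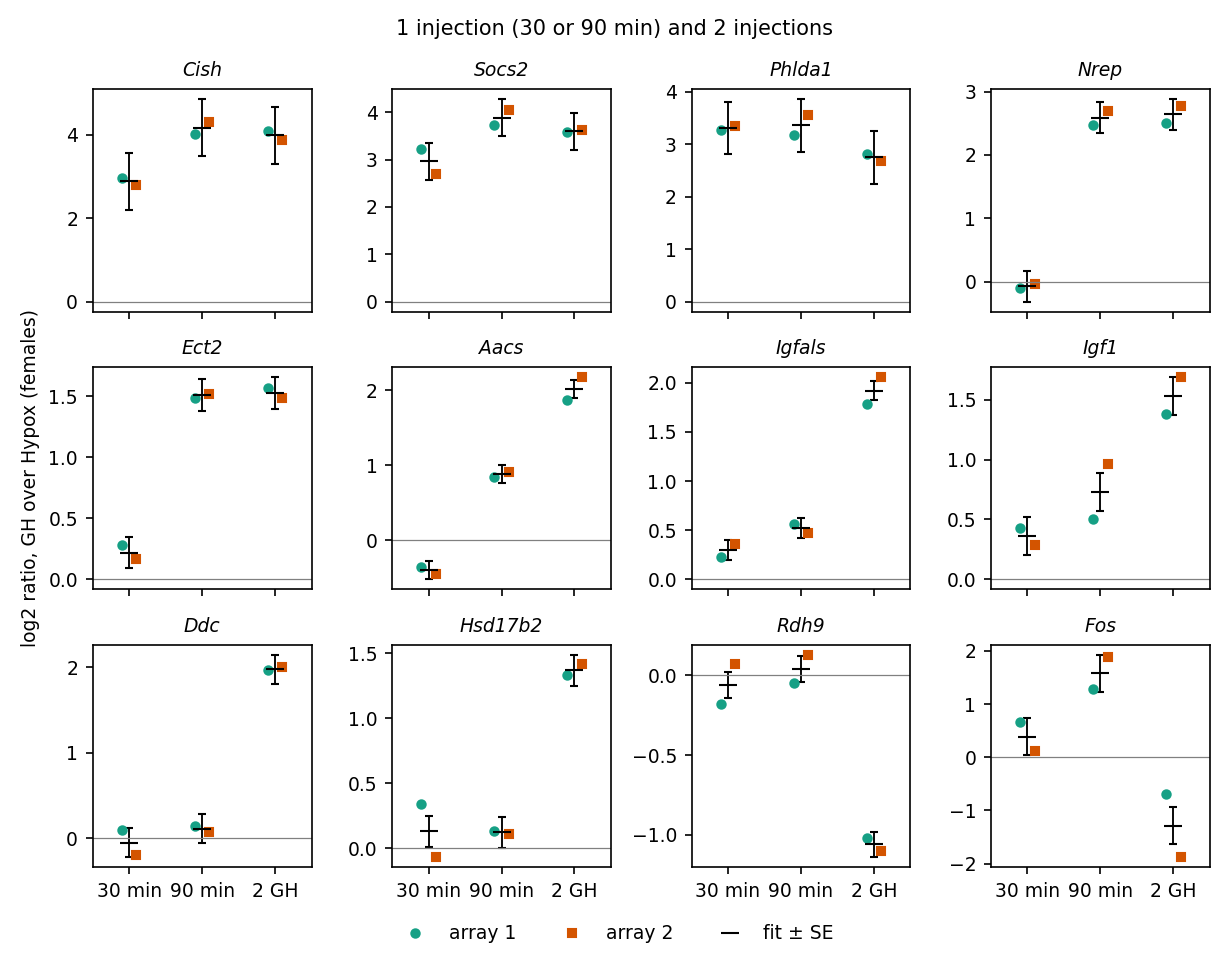
Log2 ratio of GH over Hypox in females (y axis, a scale of its own per gene) for 12 genes at 30 and 90 min after 1 injection and after 2 injections (x axis). Circles and squares are arrays 1 and 2 and bars the fit ± SE. Cish, Socs2 and Phlda1 have high ratios at each time, though not all were called at 30 min. Ddc and Hsd17b2 lie near 0 at 30 and 90 min after 1 injection. Fos is 1.58 at 90 min and -1.29 after 2 injections.

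Over all genes, 2 injections minus 30 min was called for 370 genes (1.41%; 265 or 1.01% higher and 105 or 0.401% lower). The split was 8 and 0 with median centring. It turned to 148 higher and 328 lower when only the arrays of these 2 comparisons were fitted. Without genes that followed muscle, 331 of the 370 were left. Among these 331, large positive differences were those of Sppl2a (3.24), Bhlha15 (3.03), Nrep (2.71) and Aacs (2.42), and for Sppl2a and Bhlha15 a value below 0 at 30 min (-1.52 and -1.06) is part of it. The largest negative ones were Jchain (-1.81), an immunoglobulin linker, Pfn2 (-1.61), Gpbp1l1 (-1.51), B3galnt1 (-1.40), a glycosyltransferase, and Col8a1 (-1.21), a short-chain collagen. Jchain itself was not called after 2 injections (-1.18 and -0.59; adjusted p = 0.068). Ribosome genes had 12 of 51 members with a positive called difference and none with a negative one, among them Nop58 (0.97). Odc1 had one as well (0.88).

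Against 90 min, 537 genes were called (2.05%; 216 or 0.825% higher and 321 or 1.23% lower), and 485 without those that followed muscle. Rbm45 (2.77), Ifi27l2b (2.32), Serpina9 (2.18), Ddc (1.88), Bhlha15 (1.83) and Gstm2 (1.68) had large positive values. The Rbm45 difference ran from 1.57 to 5.91 over the other settings. The split was 3 higher and 17 lower with median centring, 826 and 615 with no background correction, and 346 and 227 from the scanner's log ratio. Ifi27l2b, an interferon-inducible protein, read -1.05 at 90 min and 1.27 after 2 injections. Gstm2, a glutathione transferase with close relatives, fell at 90 min (-1.14) and was not called after 2 injections (0.54). The largest negative values without genes that followed muscle were Ren2 (-3.22), Ren1 (-3.09), Fos (-2.87), Dusp1 (-2.11) and Ppwd1 (-2.09). Dusp1, a phosphatase of MAP kinases, read 1.32 at 90 min and -0.79 after 2 injections, where it was not called. Of the 36 immediate-early genes tested, 6 had a negative called difference and none a positive one, beside 1.23% of all genes with a negative one.

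In males given the same 2 injections, 5049 genes were called (19.3%; 2770 higher and 2279 lower). The male comparison shares no pool with the female one. Of the 1153 genes higher in females, 848 were also higher in males, which is 73.5% of the female list and 30.6% of the male one, against 10.6% of all genes called higher in males. Of the 773 lower genes that did not follow muscle, 332 were also lower in males (42.9%, and 14.6% of the male list, against 8.70% of all genes). Opposite calls were few, with 17 genes higher in females and lower in males and 7 the reverse.

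Many of the named rises were called in both sexes. Female and male ratios were 3.98 and 3.11 for Cish, 3.60 and 3.22 for Socs2, 1.92 and 1.68 for Igfals, 1.53 and 1.22 for Igf1, 2.02 and 1.71 for Aacs, 1.98 and 1.87 for Ddc, and 2.64 and 2.95 for Nrep. They were 2.75 and 2.55 for Phlda1, 2.27 and 3.25 for Serpina3k, 2.25 and 2.77 for Serpina9 and 2.19 and 1.59 for Rbm45. Hacl1 read 1.84 in females and 0.69 in males, where it was not called. None of these 12 differences was called, with SE between 0.14 for Igfals and 0.96 for Cish. Bcl6 read -1.45 in females and -1.76 in males. Ribosome genes had a median of 0.65 in males (42 of 51 higher) against 0.38 in females, and no member's difference was called. The endoplasmic reticulum list had 22 of 29 higher in males, where pancreas markers were also higher (11 of 12, with medians of 0.37 and 3.57 on the male arrays, against 0.00 and 0.05 on the female arrays). The muscle list had medians of -0.01 and 2.31 on the male arrays. The part of pancreas or muscle RNA in the male values was not tested.

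**Figure D5:**
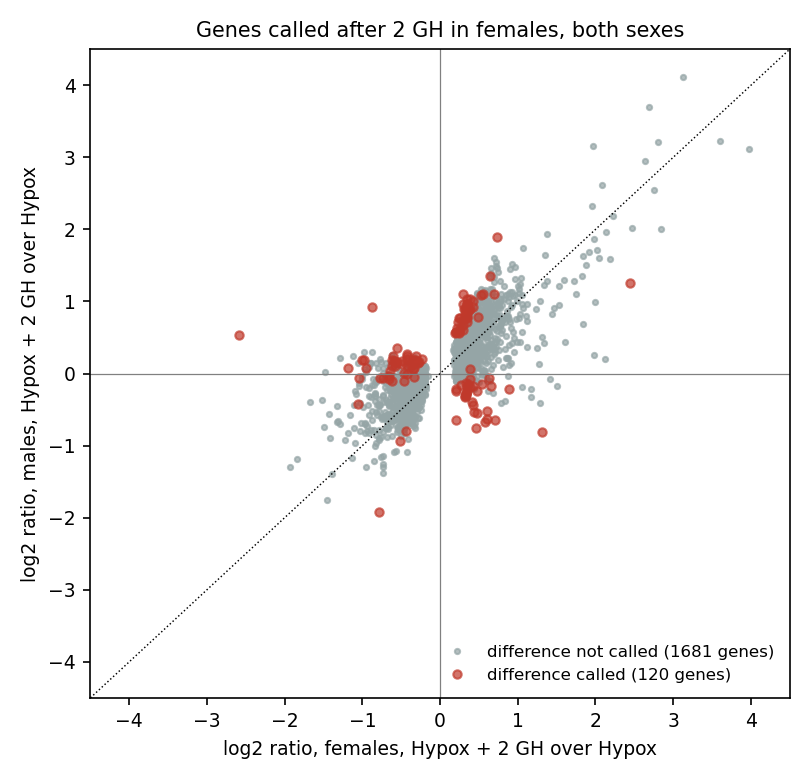
Log2 ratio after 2 GH injections in males (y axis) against females (x axis) for the 1801 genes called in females that did not follow muscle, with the line of equal ratios dotted. Of these genes 1591 had the same sign in males; red marks the 120 whose difference between the sexes was called.

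The difference between the sexes was called for 517 genes (1.97%; 227 or 0.867% higher and 290 or 1.11% lower; 108 and 70 from the scanner's log ratio), and for 429 without those that followed muscle. The largest positive values came from genes that fell in males and were not called in females. They were Gdpd3 (female 1.27, male -2.97; difference 4.23), a lysophospholipase, Lrtm1 (0.80 and -2.10; 2.90), Rgs8 (0.40 and -1.55; 1.95), Lrit1 (0.40 and -1.48; 1.87) and Krt23 (-0.74 and -2.48; 1.75), an epithelial keratin. Gdpd3 read 2.30 and 0.24 on the female arrays, and Rgs8 was not well above background in either female Hypox channel, so its female ratio, and the female side of its difference, lay near background. The largest negative values without genes that followed muscle were Pln (-3.12), Syt12 (-1.87), Pwwp3b (-1.79), Dusp8 (-1.54) and Pfn2 (-1.26). Pln, a muscle gene in kind, stood just under the limit for following muscle. The muscle list's median was -2.79 in females and 1.15 in males, and the part of muscle in the Pln difference was not tested. Syt12, a synaptotagmin, read -0.51 in females and 1.36 in males, and Dusp8, a phosphatase of stress kinases, -0.74 and 0.80. Without female array 1 the count of called differences fell to 5, without female array 2 to 68, and without either male array to 101 and 131.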

How the data were processed

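Pooled liver RNA was hybridised to 22 two-colour arrays. Per the file headers, the deposited scanner files hold each spot's mean and background intensity in both channels (Feature Extraction 9.5.1.1), its log10 ratio of processed signals, and flags. In the authors' value table the deposited unit is the log2 ratio. Its column for array 1 equalled the scanner file of array 2 and the reverse, with the same direction, and it served as a check only. Intensities were background corrected (limma 3.58.1 in R 4.3.3, normexp, offset 50) and loess-normalized within each array, without 1639 control spots or outlier flags. Each of 33767 gene names kept its brightest probe, named through RefSeq. The filter for testing asked that both arrays of some comparison show the gene well above background in 1 channel or more. It left 26191 genes, of which 13760 have a symbol. The model had 11 comparison terms and a dye term, with 10 residual degrees of freedom. The number of arrays limits the precision. A fold from a channel below background is a lower bound.

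Genes named were the 15 largest rises and falls, up to 6 called members of each list, the GH signal and IGF1 axis lists, the 5 largest each way in each tested difference, Bcl6, Cux2, Igf1, Igfals and Aacs, and single genes kept with either array left out. Some genes that the rule names are not reported here. Members and lists were chosen with earlier results of these data known. Replicate numbers were not taken as pairs. Deviations of arrays with the same number correlated above 0.1 in 28 of 55 pairs of comparisons, and r ran from -0.49 to 0.72. A pool on opposite sides of 2 ratios would give a negative r. In male Hypox channels 30 min after GH, the muscle list stood at 11.08 and 11.12 in replicate 1, and at 6.44 and 6.54 in replicate 2. Arrays with the same number may thus share pools, which the fit did not model. The fit was tested on simulated data. Other settings were normalization, background correction, filters, dye term, arrays fitted, the loop model, replicate block, slide, probes and left-out arrays. The 2 arrays lay on different slides, so slide and array cannot be told apart.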

Additional observations from a re-analysis of the deposited data

Results flagged for a closer look

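Differences between groups that were called by limma and are named above are gathered here with their values, as log2 differences. None of the groups compared had enough arrays to look for single samples that stood apart.

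Minus 30 min after 1 injection, 2 injections in females gave Sppl2a 3.24, Bhlha15 3.03, Nrep 2.71, Aacs 2.42, Serpina9 2.20, Ddc 2.03, Igfals 1.63, Keg1 1.6, Hsd17b2 1.24, Igf1 1.17, Nop58 0.97 and Odc1 0.88. The negative values were Jchain -1.81, Pfn2 -1.61, Gpbp1l1 -1.51, B3galnt1 -1.40, Col8a1 -1.21 and Rdh9 -1.0. All 18 kept their direction in 17 other settings, and 4 (Bhlha15, Aacs, Igfals and Keg1) were called with any 1 of the 4 arrays left out.

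Minus 90 min after 1 injection, the values were Rbm45 2.77, Ifi27l2b 2.32, Serpina9 2.18, Ddc 1.88, Bhlha15 1.83, Gstm2 1.68, Igfals 1.41, Hsd17b2 1.26, Aacs 1.14 and Keg1 0.79. Below 0 lay Ren2 -3.22, Ren1 -3.09, Fos -2.87, Dusp1 -2.11, Ppwd1 -2.09 and Rdh9 -1.10. All 16 kept their direction in 17 settings, and Igfals and Rdh9 were called with any 1 of the 4 arrays left out.

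Females minus males, the values were Gdpd3 4.23, Lrtm1 2.90, Rgs8 1.95, Lrit1 1.87, Krt23 1.75, Rdh9 -0.64, Pfn2 -1.26, Dusp8 -1.54, Pwwp3b -1.79, Syt12 -1.87 and Pln -3.12. Pln is a muscle gene in kind, and the part of muscle in its difference was not tested. All 11 kept their direction in 17 settings, but none was called in every case with 1 array left out.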

How the results depend on the processing

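Among the 110 named genes that were called, all kept their direction in 15 other settings and 15 kept their call in each. A call already required both arrays to go the same way, so leaving out an array could hardly reverse a direction. Some genes, such as Keg1, Ncald, Hsd17b2, Apoa5 and Ect2, were named because they kept their call with either array left out. Their calls in those 2 settings are no further support. Without replicate 1 and without replicate 2, the calls numbered 206 and 104 for GH over Hypox, 5 and 68 for females minus males, 49 and 20 for 2 injections minus 30 min, and 34 and 23 minus 90 min. Leaving out an array of the other comparison gave 101 and 131 for males, 23 and 10 for 30 min, and 512 and 13 for 90 min. In the same order of the 4 counts, median centring without loess gave 81 (56 higher, 25 lower), 0, 8 (all higher) and 20 (3 and 17). The 3 differences became 997, 785 and 1441 (826 and 615) with no background correction, 174, 152 and 194 with an offset of 0, 260, 154 and 250 with no dye term, and 1410, 1399 and 981 in the loop model. The scanner's log ratio gave 178 (108 and 70) for males, 229 for 30 min and 573 (346 and 227) for 90 min. Fitting only the arrays that enter gave 1674 for GH over Hypox (693 higher and 981 lower) and 0 for males, with 4 arrays. It gave 476 for 30 min (148 and 328) and 390 for 90 min (70 and 320). Arrays of Hypox mice alone gave 321 for males and 343 for 90 min. With the replicate block the 4 counts were 2346, 740, 499 and 578. Socs3 changed sign with median centring (0.09) and without replicate 2 (0.77), and read -0.84 without replicate 1. The cause of these changes was not tested, other than that fewer arrays enter the left-out fits.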

Other observations

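Single genes of other lists were called as well. Bmp2, a bone morphogenetic protein, read 0.53 and 0.29 (0.41, adjusted p = 0.039 by limma). Inhbc, an activin subunit made in liver, read -0.70 and -0.50 at an r of 0.51 with the muscle list, and Tgfb2 read -0.53 and -0.23. Ppp1r3b, which targets a phosphatase to glycogen, read -1.33 and -0.48 (-0.91, limma adjusted p = 0.05), with -0.89 at 30 min and -1.18 at 90 min after 1 injection. The calls of Bmp2, Tgfb2 and Ppp1r3b were lost in 7, 7 and 10 of 15 other settings.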
